A study of Homo sapiens with 5 samples.

Results

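Ribosome footprints on 48 genes of the lysosome and of autophagy were examined in HAP1 cells, a near-haploid human cell line. The genes were chosen by symbol, with earlier results of these data known. They fall into lysosomal enzymes and membrane proteins, the TFEB family of transcription factors, the core autophagy machinery and autophagy receptors. Of the 48 symbols, 46 had a row among the 13638 rows of the count table and 45 of these were among the 11205 genes tested. CTSL and NEU1 were not analysed here, and ULK2 fell under the filter on low counts. The libraries came from 2 genotypes. The wild-type group had 2 libraries, and the group with a knockout of ZCCHC4, an RNA methyltransferase gene, had 3. No treatment, time point or other allele is named for either group. The labels do not say how many knockout clones or separate cultures the libraries represent. The p-values weigh the difference between genotypes only against the spread among libraries within a genotype, and that spread may be technical.

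Lysosomes are acidic organelles in which hydrolases break down proteins, lipids, sugars and nucleic acids. Hydrolases reach them with a mannose 6-phosphate tag, a proton pump acidifies them, and membrane glycoproteins such as LAMP1 and LAMP2 line them. Autophagy delivers cytoplasm to lysosomes. The ULK kinase complex starts the process, a lipid kinase complex marks the membrane, further proteins supply and extend that membrane, a pair of ubiquitin-like conjugation reactions attach ATG8 proteins to it, and receptors bring cargo to the ATG8 proteins. TFEB, TFE3 and MITF bind a short DNA element with the core CACGTG that is known from promoters of lysosomal genes.

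Levels are given as CPM, counts scaled for library size with trimmed means of M values (TMM). The labels list the molecule as polyA RNA, whereas the protocol they carry isolates footprints, and the values are read here as footprints on the basis of that protocol. A footprint count follows both the amount of an mRNA and the number of ribosomes on it, and these were not separated. In bulk cells a lower share of cells with an mRNA and a lower amount per cell cannot be told apart. The wild-type libraries held 4887380 and 5302160 counts and the knockout libraries between 16940732 and 31557573, so depth and genotype moved together. ZCCHC4 itself stood at 16.04 and 13.3 CPM in wild type and at 3.85, 3.41 and 4.98 CPM in the libraries labelled knockout (log2 fold change -1.82 ± 0.20, SE, edgeR adjusted p = 7.27e-05). Knockout replicate 2 stood apart from replicates 1 and 3, with chi-square values of 27.7 and 24.6 for each degree of freedom against them, where replicates 1 and 3 gave 2.97 and the wild-type pair 1.14. VIM, CDH2, CD44, ITGB1 and KRT18, genes of adherent lines, were detected in each library, whereas CD34 and CD33 had at most 2 counts in any library. Some of the former differed between genotypes. VIM went from 123 and 141 CPM to 496, 532 and 505 CPM (1.95 ± 0.08), CD44 from 14.3 and 16.2 CPM to 6.30, 6.44 and 6.54 CPM (-1.25 ± 0.15), ITGB1 rose by 0.41 ± 0.07 and CDH2 by 0.24 ± 0.07, and KRT18 did not pass (-0.11 ± 0.10). Their part in the values of the members was not tested.

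Lysosomal and autophagy genes moved in both directions, and the block of lysosomal genes held most of the rises. Of the 45 genes tested, 12 rose, 15 fell and 18 missed the threshold of edgeR's quasi-likelihood test (Benjamini-Hochberg adjusted p under 0.05), a called share equal to the 60.0% of all genes tested (30.2% higher and 29.8% lower). Among 17 lysosomal genes, 10 rose and 5 fell, and the median log2 fold change (knockout over wild type) was 0.37. Among 21 core autophagy genes, 1 rose and 6 fell, 14 did not pass, and the median was -0.07. Of the 4 receptors, 1 rose and 3 fell, with a median of -0.43, and of the 3 TFEB factors 1 fell and 2 did not pass. The median of all genes tested was 0.02. Wild-type and knockout libraries had separate ranges in 34 of the 45 genes, where 76.4% of all genes tested had no overlap. At least a 2-fold change was called for 5 rises and 3 falls, where 23.2% of all genes tested were called with such a change.

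**Figure D1:**
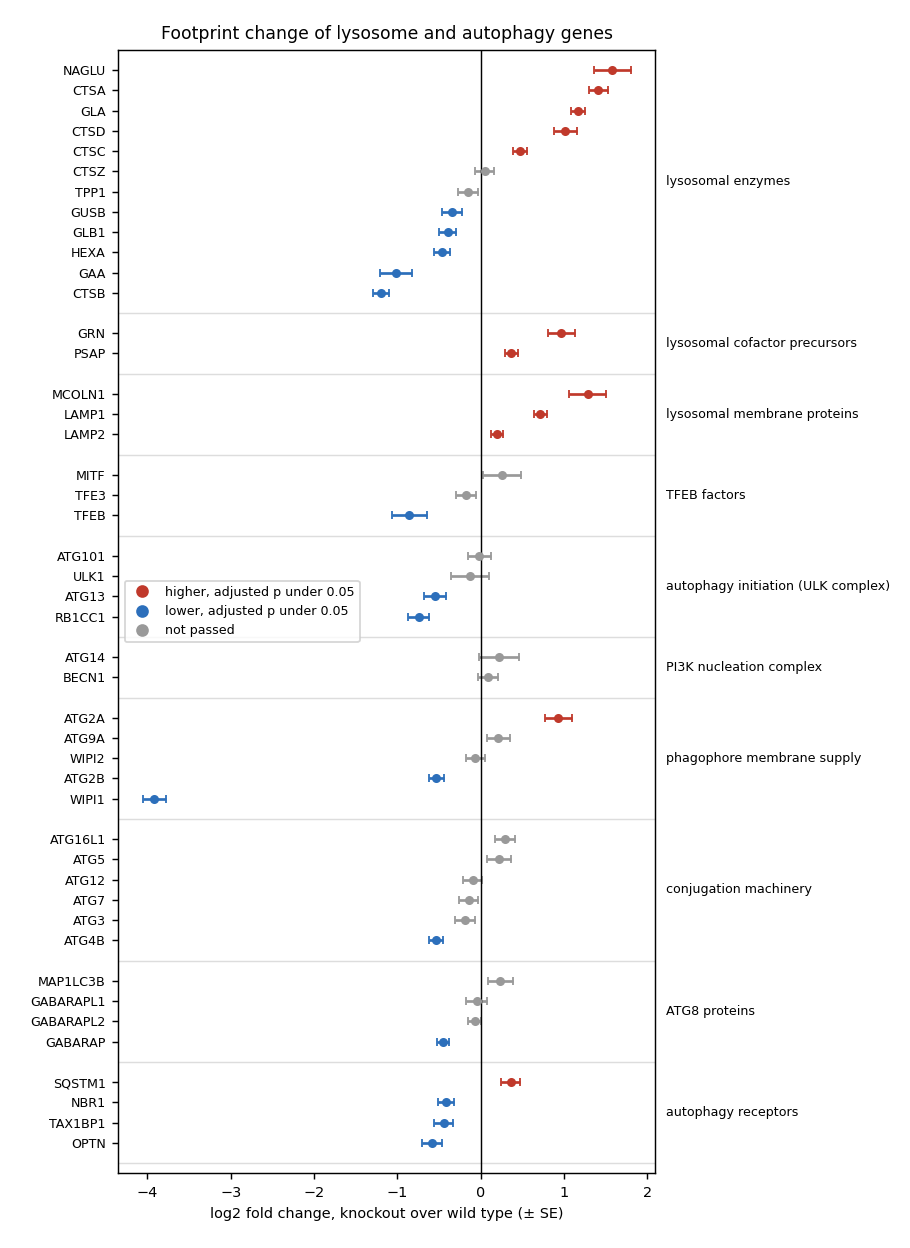
Log2 fold change of footprints, knockout over wild type, for the 45 genes tested, grouped by role. Points are estimates, bars are ± 1 SE, and colours mark genes past an adjusted p of 0.05 (red higher, blue lower, grey not passed); all 3 lysosomal membrane proteins lie right of 0 and WIPI1 lies far to the left at -3.92.

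None of these calls was lost without the knockout library that stood apart, but 5 others were gained. Without knockout replicate 2, 15 genes rose and 17 fell, among them all 12 rises and all 15 falls found with it. Over all genes, that setting called 8176 of 11161, in place of 6721 of 11205. By block it gave 10 rises and 6 falls among lysosomal genes, 4 and 6 in the autophagy core, 1 and 3 among receptors and 0 and 2 among TFEB factors. The 5 calls gained were TPP1 and TFE3 among the falls and ATG5, ATG16L1 and MAP1LC3B among the rises. Scaling mattered more. With library totals in place of TMM the median of all genes tested moved to -0.20, and the members split into 9 rises and 21 falls. Over all 11205 genes tested, that scaling gave 2391 rises and 4564 falls, so falls outnumbered rises there too. Lysosomal genes then gave 8 rises and 6 falls with a median of 0.15 in place of 0.37, and the autophagy core gave 1 rise and 10 falls with a median of -0.29. Receptors gave 0 rises and 3 falls (median -0.65) and TFEB factors 0 and 2 (median -0.39).

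Of the 12 lysosomal enzymes tested, 5 rose and 5 fell, and the median log2 fold change was -0.05. The largest rise was that of NAGLU, an exoglycosidase that acts on heparan sulfate. It stood at 5.69 and 7.65 CPM in wild type and at 17.3, 24.1 and 18.7 CPM in the knockout, a log2 fold change of 1.58 ± 0.22 (SE, edgeR adjusted p = 2.86e-04). CTSA, the protective protein that stabilises beta-galactosidase and neuraminidase, went from 39.5 and 42.8 CPM to 102, 123 and 105 CPM (1.41 ± 0.12, edgeR adjusted p = 1.18e-05). In both genes every knockout library lay above both wild-type libraries, and replicate 2 was the highest. The value of NAGLU is less certain, since 14.9% of its coding stretches of 28 bases, about the length of a footprint, also occur in an overlapping gene model without a row.

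GLA, the alpha-galactosidase that is deficient in Fabry disease, stood at 74.5 and 73.4 CPM in wild type and at 161, 175 and 163 CPM in the knockout (1.17 ± 0.09, edgeR adjusted p = 6.24e-06). CTSD, the main aspartic protease of lysosomes, stood at 116 and 126 CPM against 215, 294 and 226 CPM (1.01 ± 0.14, edgeR adjusted p = 2.25e-04). The smallest rise among the enzymes was that of CTSC, the dipeptidyl peptidase that activates serine proteases of granules, from 96.4 and 105 CPM to 139, 143 and 137 CPM (0.47 ± 0.08, edgeR adjusted p = 0.00101). None of these 3 genes had overlapping libraries. The CTSC call was lost when near-identical libraries were summed, namely the wild-type pair and knockout replicates 1 and 3 (edgeR adjusted p = 0.0702). Of the stretches of 28 bases in the CTSD coding sequence, 97.8% also occur in transcripts of AC068580.4, an overlapping gene model without a row, so footprints of the 2 models cannot be told apart.

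Among the falls, CTSB, a cysteine protease, had the largest. It is encoded on the minus strand of chromosome 8 (GRCh38, 11842524 to 11868229, 10 exons) and stood at 315 and 310 CPM in wild type and at 129, 154 and 127 CPM in the knockout, a log2 fold change of -1.20 ± 0.10 (SE, edgeR adjusted p = 1.03e-05). GAA, the acid alpha-glucosidase that degrades glycogen, stood at 63.7 and 62.0 CPM against 25.4, 41.6 and 27.3 CPM (-1.01 ± 0.19, edgeR adjusted p = 0.00172). Replicate 2 was the knockout library nearest to wild type in both genes, and all knockout libraries were below both wild-type libraries.

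Smaller falls were called for HEXA, GLB1 and GUSB. HEXA, the alpha subunit of beta-hexosaminidase, went from 196 and 195 CPM to 135, 159 and 131 CPM (-0.47 ± 0.10, edgeR adjusted p = 0.00283). GLB1, the beta-galactosidase, went from 98.1 and 95.2 CPM to 68.8, 81.4 and 70.5 CPM (-0.40 ± 0.10, edgeR adjusted p = 0.00700). GUSB, the beta-glucuronidase, went from 61.4 and 65.7 CPM to 46.8, 57.2 and 46.5 CPM (-0.34 ± 0.12, edgeR adjusted p = 0.0298). The genotypes did not overlap in any of these genes, yet the GLB1 call was lost without either wild-type library (edgeR adjusted p = 0.0752 and 0.0514). The GUSB call was lost without any single library other than knockout replicate 2 (edgeR adjusted p between 0.0692 and 0.194). The TMPPE gene lies within GLB1 on the same strand and rose by 1.01 ± 0.27 on the log2 scale, at a level of 2.77 CPM in wild type, a call lost without either wild-type library. All 3 calls were lost with near-identical libraries summed (edgeR adjusted p = 0.108 for HEXA, 0.204 for GLB1 and 0.322 for GUSB). For HEXA, 35.9% of the 28-base stretches occur in an overlapping gene model without a row, and for GUSB 9.50% occur in pseudogenes.

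CTSZ, a cysteine carboxypeptidase, and TPP1, a tripeptidyl peptidase, did not pass. CTSZ had log2 fold change 0.05 ± 0.11 and TPP1 -0.15 ± 0.12, and the genotypes overlapped in both. TPP1 ran from 60.5 to 76.3 CPM in the knockout around the wild-type values of 72.6 and 73.6 CPM, with replicate 2 the highest. Of the 28-base stretches of TPP1, 38.4% occur in an overlapping gene model without a row.

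Both precursors of lysosomal cofactors rose. The product of PSAP is cut into the saposins that help enzymes degrade sphingolipids. PSAP stood at 549 and 523 CPM in wild type and at 658, 744 and 672 CPM in the knockout (0.37 ± 0.07, edgeR adjusted p = 0.00225). GRN, the precursor of the granulins, stood at 126 and 107 CPM against 197, 285 and 205 CPM (0.97 ± 0.16, edgeR adjusted p = 8.21e-04). All knockout libraries exceeded both wild-type libraries in each gene, and replicate 2 again had the highest value. The PSAP call was lost without wild-type replicate 2 (edgeR adjusted p = 0.0517), with library totals (0.119) and with near-identical libraries summed (0.0818).

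The 3 lysosomal membrane proteins rose with TMM scaling, although LAMP2 was at -0.02 with library totals. LAMP1, an abundant membrane glycoprotein, stood at 218 and 227 CPM in wild type and at 353, 389 and 353 CPM in the knockout, a log2 fold change of 0.72 ± 0.08 (edgeR adjusted p = 5.63e-05). MCOLN1, the calcium-permeable channel TRPML1, stood at 12.8 and 10.8 CPM against 23.8, 36.4 and 26.9 CPM (1.28 ± 0.22, edgeR adjusted p = 8.72e-04). LAMP2, a related glycoprotein, stood at 321 and 320 CPM against 386, 356 and 360 CPM (0.20 ± 0.07, edgeR adjusted p = 0.0353). LAMP2 had a single row, so its isoforms were not told apart. The genotypes did not overlap in any of the 3 genes. The LAMP2 call was lost in 11 of 14 alternatives, whereas those of LAMP1 and MCOLN1 were kept in all 14.

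**Figure D2:**
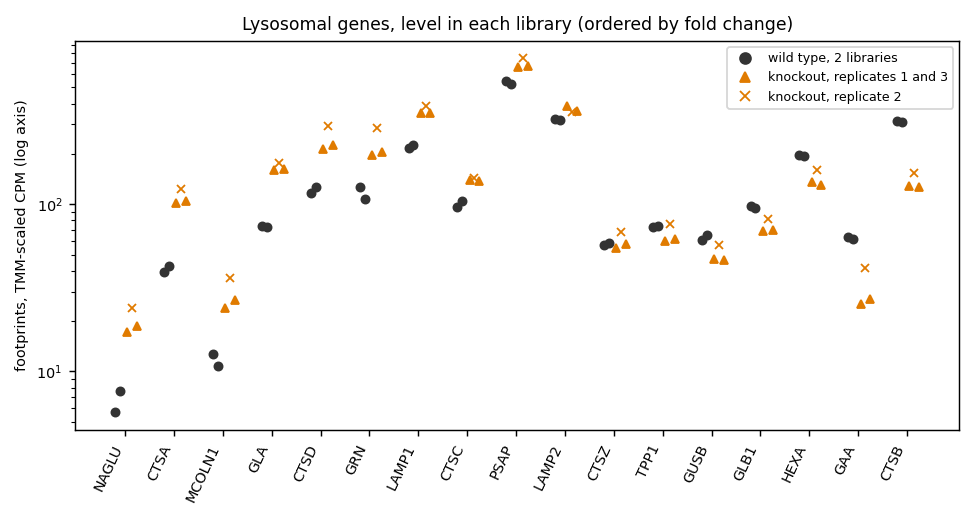
TMM-scaled CPM (log axis) of the 17 lysosomal genes in each library, ordered from the largest rise to the largest fall. Circles are the 2 wild-type libraries, triangles knockout replicates 1 and 3, crosses knockout replicate 2; the cross is the highest knockout point for most genes, and for NAGLU, CTSA and CTSB the genotypes are well apart.

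TFEB, the transcription factor that switches on lysosomal genes when mTORC1 is inactive, fell. It stood at 6.04 and 6.16 CPM in wild type and at 3.15, 3.10 and 3.76 CPM in the knockout, a log2 fold change of -0.86 ± 0.21 (SE, edgeR adjusted p = 0.00613). The call was lost without wild-type replicate 2 (edgeR adjusted p = 0.0511, log2 fold change -0.85). TFE3, its relative on the X chromosome, stood at 25.5 and 26.5 CPM against 22.7, 24.96 and 21.6 CPM and did not pass (-0.18 ± 0.12, edgeR adjusted p = 0.223). MITF, best known from melanocytes, stood at 3.79 and 3.55 CPM against 4.22, 4.03 and 4.88 CPM and did not pass either (0.26 ± 0.23, edgeR adjusted p = 0.345). The knockout libraries lay below wild type for TFEB and TFE3 and above it for MITF without overlap. The summed level of the 3 genes was 35.8 ± 0.607 CPM (SD) over 2 wild-type libraries and 30.8 ± 1.11 CPM over 3 knockout libraries.

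The element that TFEB factors bind was searched in promoter windows of 300 bases, from 250 before to 50 after the start site, taken from RefSeq on GRCh38.p14. Windows were found for 40 of the 46 members with a row. CTSB, HEXA, NAGLU, RB1CC1, LAMP2 and PSAP had none. The letters searched were CACGTG, which reads the same on both strands, and the longer form TCACGTGA, which contains it and also reads the same on both strands. CACGTG was in the windows of 7 of 40 members (17.5%), against 12.7% of 8740 tested genes and 8.77% of 27305 genes in the table. Among lysosomal genes it was in 5 of 12 (41.7%), and TCACGTGA in 4 of 12 (33.3%), against 2.19% of tested genes for TCACGTGA. Windows of TFEB, TFE3, MITF and the 4 receptors held no match, and 2 of 21 core autophagy genes did (ATG14 and ATG3).

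The 5 lysosomal promoters with a match are shown because 4 of their genes rose and 1 fell. Each stretch runs 5′ to 3′ on the gene's strand, from 200 bases before to 20 after the start site, with CACGTG and the bases that extend it to TCACGTGA, and to a G before or a C after that form, in capitals. LAMP1 lies at chr13:113297039-113297258 (plus strand), MCOLN1 at chr19:7522424-7522643 (plus strand), CTSA at chr20:45891135-45891354 (plus strand), CTSD at chr11:1763908-1764127 (minus strand) and GAA at chr17:80101381-80101600 (plus strand).
LAMP1: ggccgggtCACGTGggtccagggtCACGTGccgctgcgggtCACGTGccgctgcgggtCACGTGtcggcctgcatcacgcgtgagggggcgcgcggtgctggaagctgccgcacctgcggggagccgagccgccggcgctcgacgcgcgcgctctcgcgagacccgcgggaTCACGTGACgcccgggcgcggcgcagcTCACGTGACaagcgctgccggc
MCOLN1: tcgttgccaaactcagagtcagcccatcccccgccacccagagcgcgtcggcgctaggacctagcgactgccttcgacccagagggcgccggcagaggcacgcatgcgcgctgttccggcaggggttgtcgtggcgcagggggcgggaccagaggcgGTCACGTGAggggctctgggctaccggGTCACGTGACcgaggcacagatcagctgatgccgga
CTSA: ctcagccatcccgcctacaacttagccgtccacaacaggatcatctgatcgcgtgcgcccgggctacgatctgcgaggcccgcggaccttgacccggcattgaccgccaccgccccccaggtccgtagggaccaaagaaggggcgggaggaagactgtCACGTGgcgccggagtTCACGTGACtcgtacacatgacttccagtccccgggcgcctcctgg
CTSD: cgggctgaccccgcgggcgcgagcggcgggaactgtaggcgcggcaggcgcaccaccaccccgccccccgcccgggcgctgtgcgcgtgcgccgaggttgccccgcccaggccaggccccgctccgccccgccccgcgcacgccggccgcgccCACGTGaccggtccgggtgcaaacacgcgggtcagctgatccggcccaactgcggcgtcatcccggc
GAA: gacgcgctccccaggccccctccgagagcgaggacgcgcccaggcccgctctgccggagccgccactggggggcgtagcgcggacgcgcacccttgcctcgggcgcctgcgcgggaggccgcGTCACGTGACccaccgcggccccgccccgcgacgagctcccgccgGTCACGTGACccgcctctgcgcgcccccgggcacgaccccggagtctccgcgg

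The LAMP1 stretch held 6 copies of CACGTG, of which 2 were TCACGTGA. Those of MCOLN1 and GAA held 2 copies each, all in the longer form. CTSA had 2 copies, 1 of them in the longer form, and CTSD had 1 copy of the core alone. Genes with a match were found in both directions, with GAA at -1.01 on the log2 scale and MCOLN1, with the same number of copies, at 1.28. Among lysosomal genes with a window, 4 of the 5 with CACGTG rose and 1 fell (median 1.01). Of the 7 without it, 3 rose and 2 fell (median 0.05). Over all tested genes, those with CACGTG in the window had a median log2 fold change of 0.09 and rose in 35.2% and fell in 25.1% of cases. Those without it had a median of 0.02, with 30.2% rising and 29.4% falling. A match describes the sequence of the window, and binding was not measured. The part of the element in these fold changes was not tested.

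In the ULK complex, which starts autophagosome formation, 2 of the 4 subunits tested fell and 2 did not pass. RB1CC1, the scaffold FIP200, stood at 81.9 and 79.5 CPM in wild type and at 52.4, 40.3 and 51.6 CPM in the knockout (-0.74 ± 0.12, edgeR adjusted p = 7.75e-04). ATG13, the adaptor between kinase and scaffold, stood at 34.2 and 32.1 CPM against 24.7, 19.8 and 23.2 CPM (-0.55 ± 0.13, edgeR adjusted p = 0.00479). Replicate 2 was the lowest knockout library in both, and neither gene had overlapping genotypes. The ATG13 call was lost without wild-type replicate 1 (edgeR adjusted p = 0.0605).

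The kinase ULK1 did not pass, with 8.80 and 9.15 CPM in wild type and 6.93, 10.5 and 7.62 CPM in the knockout (-0.13 ± 0.23). Its libraries overlapped, as did those of ATG101, the partner of ATG13, at 27.3 and 28.4 CPM against 24.1, 31.7 and 27.1 CPM (-0.02 ± 0.14). The related kinase gene ULK2 had no count in wild type and 1, 2 and 2 counts in the knockout, where 3 counts is the limit that a count of 0 allows, so no fold is given. Of the lipid kinase complex that marks the membrane, BECN1 (0.09 ± 0.12) and ATG14 (0.22 ± 0.24) did not pass. The wild-type libraries of ATG14, at 10.2 and 6.16 CPM, spanned all but the highest knockout library, at 10.6 CPM.

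WIPI1, a protein that binds phosphatidylinositol 3-phosphate on the growing membrane, had the largest change of any member. It stood at 34.8 and 35.3 CPM in wild type and at 2.13, 2.35 and 2.47 CPM in the knockout, a fall of 15.1-fold (log2 fold change -3.92 ± 0.14, SE, edgeR adjusted p = 1.41e-07). The 3 knockout libraries, replicate 2 included, were close together and far below wild type, and alternatives gave log2 values between -4.14 and -3.86. WIPI1 lies on the minus strand of chromosome 17 (GRCh38, 68421282 to 68457421, 13 exons). ARSG, which overlaps it on the opposite strand, stood at 3.61 ± 0.709 CPM (SD) over 2 wild-type libraries and at 1.92 ± 0.164 CPM over 3 knockout libraries (log2 fold change -0.89 ± 0.26). The use of strand in the counting is not given in the sources used here. WIPI2, its close relative, stood at 29.2 and 28.8 CPM against 26.8, 30.2 and 26.2 CPM and did not pass (-0.07 ± 0.11).

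The lipid transfer proteins ATG2A and ATG2B, which feed lipid into the growing membrane, moved in opposite directions. ATG2A stood at 12.4 and 10.3 CPM in wild type and at 20.4, 24.5 and 20.5 CPM in the knockout (0.93 ± 0.16, edgeR adjusted p = 8.78e-04), the 1 rise in the autophagy core. ATG2B stood at 67.1 and 76.2 CPM against 48.6, 49.0 and 51.0 CPM (-0.53 ± 0.09, edgeR adjusted p = 0.00104). Both calls were kept in all 14 alternatives, and ATG2B had the higher level per coding length in both genotypes. ATG9A, the lipid scramblase on membrane vesicles, did not pass (0.21 ± 0.14), with 30.7 and 28.6 CPM in wild type and 32.4, 39.9 and 31.3 CPM in the knockout, and 29.6% of its 28-base stretches occur in an overlapping gene model without a row.

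Of the 6 genes for the conjugation reactions, 1 fell and 5 did not pass. ATG4B, the protease that trims and releases ATG8 proteins, stood at 89.7 and 91.1 CPM in wild type and at 61.5, 65.6 and 59.9 CPM in the knockout (-0.54 ± 0.09, edgeR adjusted p = 5.89e-04). That call was lost with near-identical libraries summed (-0.51, edgeR adjusted p = 0.0537). The E1-like enzyme ATG7 (-0.14 ± 0.11), the E2-like enzyme ATG3 (-0.19 ± 0.12) and the ubiquitin-like ATG12 (-0.10 ± 0.12) did not pass. For ATG12, 45.5% of the 28-base stretches occur in the processed pseudogene AC025198.1, so its value is uncertain. ATG5, to which ATG12 is joined, was at 0.22 ± 0.15, and ATG16L1, which places that conjugate on the membrane, at 0.29 ± 0.12 (edgeR adjusted p = 0.0663). Without knockout replicate 2, ATG5 and ATG16L1 passed, at 0.33 and 0.34 (edgeR adjusted p = 0.00162 and 0.00165).

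Among the 4 ATG8 genes, whose products are joined to membrane lipid, GABARAP fell and the other members did not pass. GABARAP stood at 219 and 224 CPM in wild type and at 162, 164 and 160 CPM in the knockout (-0.45 ± 0.07, edgeR adjusted p = 5.01e-04), with the 3 knockout libraries close together. With near-identical libraries summed it did not pass (-0.44, edgeR adjusted p = 0.0809). GABARAPL2 stood at 123 and 118 CPM against 115, 113 and 116 CPM (-0.07 ± 0.08), GABARAPL1 was at -0.05 ± 0.12 and MAP1LC3B at 0.23 ± 0.15. The summed level of the 4 genes was 382 ± 2.83 CPM (SD) over 2 wild-type libraries and 319 ± 3.37 CPM over 3 knockout libraries. Many short stretches of these genes are not unique. Of the 28-base stretches in the coding sequence, 86.2% of those in MAP1LC3B occur in other genes, most of them in MAP1LC3B2, whose own row had at most 2 counts in a library. The shares were 80.2% for GABARAP, mostly in an overlapping gene model, 23.1% for GABARAPL1 and 0% for GABARAPL2, so the values of the first 3 are uncertain.

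Of the 4 cargo receptors, SQSTM1 rose and NBR1, TAX1BP1 and OPTN fell. SQSTM1, or p62, which gathers ubiquitinated cargo into bodies, stood at 123 and 137 CPM in wild type and at 150, 190 and 160 CPM in the knockout (0.36 ± 0.11, edgeR adjusted p = 0.0216). Its call was lost without either wild-type library (edgeR adjusted p = 0.204 and 0.0646) and in 7 of 14 alternatives in all, and its log2 fold change was 0.14 with library totals. OPTN, a receptor for mitochondria and bacteria, had the largest fall of the 4, from 53.0 and 51.3 CPM to 34.3, 30.8 and 39.3 CPM (-0.58 ± 0.12, edgeR adjusted p = 0.00264).

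TAX1BP1, a receptor for aggregates, stood at 215 and 211 CPM in wild type and at 171, 132 and 166 CPM in the knockout (-0.44 ± 0.11, edgeR adjusted p = 0.00739). NBR1, a partner of SQSTM1 in cargo bodies, stood at 109 and 106 CPM against 85.4, 73.4 and 82.6 CPM (-0.42 ± 0.09, edgeR adjusted p = 0.00391). The genotypes overlapped in none of the 4 receptors. Without wild-type replicate 1 only OPTN kept a call among the falls (edgeR adjusted p = 0.0723 for TAX1BP1 and 0.0529 for NBR1), and TAX1BP1 was also lost without wild-type replicate 2 (0.0585). Summing near-identical libraries ended the NBR1 call too (edgeR adjusted p = 0.0978).

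**Figure D3:**
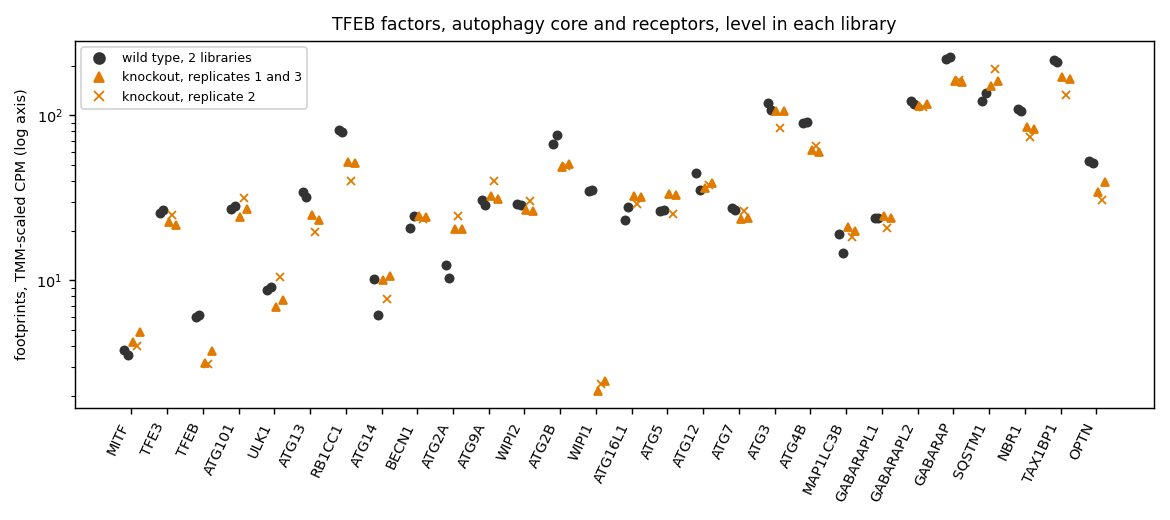
TMM-scaled CPM (log axis) of the TFEB factors, core autophagy genes and receptors in each library, in the order of their roles. Circles are the 2 wild-type libraries, triangles knockout replicates 1 and 3, crosses knockout replicate 2; WIPI1 lies near 2 CPM in all knockout libraries and near 35 CPM in wild type, and no other gene shown had a called change of 2-fold.

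Summed over the block, lysosomal genes held 2413 ± 13.9 CPM (SD) over 2 wild-type libraries and 2922 ± 247 CPM over 3 knockout libraries, a ratio of 1.21. The knockout libraries were at 2772, 3207 and 2786 CPM, and all of them were above wild type. The enzymes alone had a ratio of 1.03, with knockout sums of 1153, 1397 and 1169 CPM on both sides of the wild-type sums of 1196 and 1216 CPM. The autophagy core went from 1063 ± 12.0 to 881 ± 15.3 CPM (ratio 0.828), and the receptors went from 503 ± 4.28 to 439 ± 11.2 CPM (ratio 0.872). All genes tested together summed to 914210 and 912093 CPM in wild type and to 1.07e+06, 1.05e+06 and 1.07e+06 CPM in the knockout. TMM-scaled sums were thus higher in the knockout over the whole table as well. No test was made on the sums of the blocks, which a few abundant genes dominate.

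Per kilobase of coding sequence, GABARAP had the highest footprint level of the members in wild type, at 631 ± 11.1 CPM per kb (SD, n = 2). GABARAPL2 followed at 343 ± 10.1 and PSAP at 341 ± 11.6 CPM per kb, closer to each other than their spread, then CTSB at 308 ± 3.12, LAMP2 at 260 ± 0.677 and LAMP1 at 178 ± 4.97 CPM per kb. The lowest of the genes tested were ULK1 at 2.85 ± 0.0788 and ATG2A at 1.95 ± 0.262 CPM per kb. In the knockout GABARAP remained first, at 461 ± 5.41 CPM per kb (SD, n = 3). Its level is uncertain in both genotypes, since 80.2% of its 28-base stretches also occur in other gene models. WIPI1 went from rank 28 of 46 to rank 45, whereas GLA went from rank 18 to 8 and CTSA from rank 27 to 15.

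The deviation of knockout replicate 2 followed the base composition of the members. Across the 45 genes, the log2 ratio of replicate 2 to the mean of replicates 1 and 3 went with the G + C content of the coding sequence, with Pearson's r = 0.82 and Spearman's rho = 0.83. Over 11075 tested genes with a value the same measures were 0.56 and 0.67. These describe a single library, genes are not independent replicates, and all points share the same library and depth. GAA, MCOLN1, GRN and NAGLU, all rich in G + C, were high in replicate 2, and RB1CC1, ATG5 and TAX1BP1 were low. The median G + C content was 56.5% in lysosomal genes and 49.1% in the autophagy core. The median log2 fold change of lysosomal genes against wild type was 0.30 in replicate 1, 0.47 in replicate 2 and 0.33 in replicate 3. For the autophagy core it was -0.11, -0.09 and -0.05. Between genotypes the relation was weaker, with r = 0.24 across members and -0.11 across all genes. Relative to genes of the same decile of G + C content, the lysosomal median was 0.33 and that of the autophagy core -0.13.

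**Figure D4:**
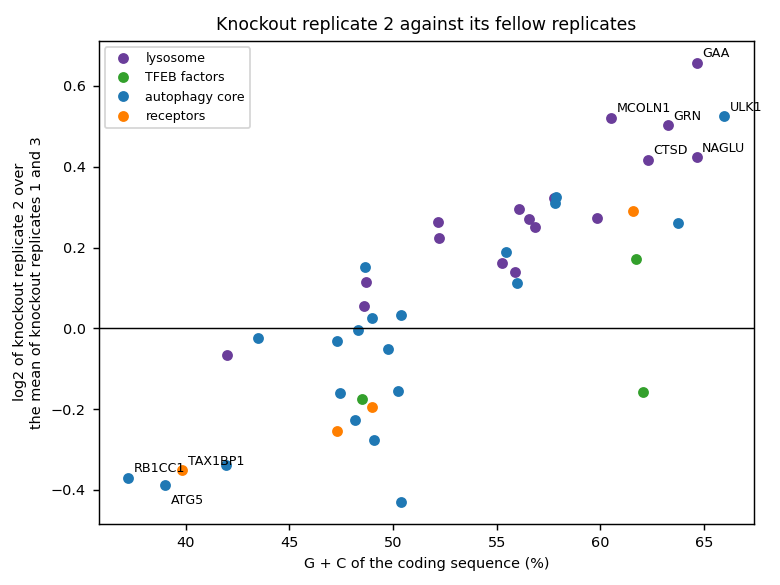
G + C content of the coding sequence (%) against the log2 ratio of knockout replicate 2 to the mean of knockout replicates 1 and 3, 1 point for each of the 45 genes tested, coloured by block. Points rise from RB1CC1 at the lower left to GAA and ULK1 at the upper right (r = 0.82).

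CTSB lay among genes that were also lower. It lies on chromosome 8 below 50 Mb, a stretch chosen after values of these data were seen, whose 143 tested genes centred on -0.90 (median, log2) and of which 104 fell and 9 rose. The 15 tested neighbours within 5 Mb of CTSB had a median of -0.85, next to -1.20 for CTSB itself. RB1CC1, on the same chromosome at 52622456 to 52714432 and so beyond that stretch, fell by 0.74 on the log2 scale while its 19 neighbours within 5 Mb had a median of 0.10. MAP1LC3B, on chromosome 16, was at 0.23 and did not pass, while its 57 neighbours had a median of 0.60. GABARAPL2, on the same chromosome, was at -0.07 and did not pass, and its 35 neighbours had a median of -0.22 (0.0356 within 2 Mb). The 45 neighbours of WIPI1 had a median of -0.07 within 5 Mb, and the 15 within 2 Mb had -0.36, against -3.92 for WIPI1. Leaving out the stretch on chromosome 8 dropped only CTSB from the members, with no new fit, and left 12 rises and 14 falls. The part of position in the value of CTSB was not tested.

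Other genes of the same pathways were examined in 7 further lists, of which 114 genes were tested. Of these, 47 rose (41.2%) and 31 fell (27.2%), with a median of 0.19. Over all genes tested, 30.2% rose and 29.8% fell. With library totals 29 rose and 41 fell, and the median was -0.03. All 11205 genes tested then gave 2391 rises and 4564 falls, with a median of -0.20. The V-ATPase, the proton pump that acidifies lysosomes, had 12 rises and 3 falls among 19 genes and a median of 0.40 (0.18 with library totals). ATP6V1H stood at 122 and 125 CPM in wild type and at 226, 215 and 218 CPM in the knockout (0.83 ± 0.08), and ATP6V0E1 was at 0.94 ± 0.09. ATP6V1C2, an isoform of the C subunit, fell from 12.1 and 11.0 CPM to 2.46, 1.98 and 1.83 CPM (-2.46 ± 0.20), and ATP6V1B2, which lies in the stretch of chromosome 8, by 0.55 on the log2 scale.

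Genes for mannose 6-phosphate sorting gave 6 rises and 1 fall among 9, with a median of 0.72 (0.50 with library totals). M6PR, the cation-dependent receptor for the tag, stood at 82.8 and 75.4 CPM in wild type and at 162, 166 and 161 CPM in the knockout (1.04 ± 0.08), and the adaptor GGA2 was at 0.87 ± 0.08. The fall was that of GNPTG, a subunit of the enzyme that adds the tag (-1.15 ± 0.23). Other lysosomal membrane proteins gave 8 rises and 3 falls among 17 with a median of 0.35 (5 and 5 with library totals). The tetraspanin gene CD63 (0.88 ± 0.08) and LAPTM4A (0.66 ± 0.07) were among the rises. LAMP3, a relative of LAMP1, stood at 89.5 and 86.3 CPM in wild type and at 6.52, 7.19 and 6.26 CPM in the knockout (-3.73 ± 0.10), a change close in size to that of WIPI1, and the channel gene TPCN1 was at -1.29 ± 0.14.

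The other lysosomal hydrolases had 8 rises, 6 falls and 12 genes that did not pass among 26. The called share was 53.8%, where it was 83.3% among the member enzymes and 60.0% over all genes tested. The median of these 26 genes was 0.10, and -0.12 with library totals. CTSV, a cysteine protease related to cathepsin L, stood at 74.0 and 73.0 CPM in wild type and at 173, 178 and 172 CPM in the knockout (1.25 ± 0.08), and LIPA, the acid lipase, was at 0.83 ± 0.09. ASAH1, the acid ceramidase, in the stretch of chromosome 8, stood at 302 and 324 CPM against 133, 134 and 134 CPM (-1.23 ± 0.07), and SIAE, a sialic acid esterase, was at -0.99 ± 0.11.

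Further autophagy machinery gave 5 rises (21.7%) and 11 falls (47.8%) among 23 genes, with a median of -0.31. The shares over all genes tested were 30.2% and 29.8%. With library totals this list had 2 rises and 13 falls (median -0.53), and with near-identical libraries summed 1 and 6. TP53INP1, which binds ATG8 proteins and is a known target of p53, had 185 counts over the wild-type libraries, at 16.9 and 16.2 CPM, and none in any knockout library. It was at least 403-fold lower there, against a floor of 3 counts over the knockout group. TECPR1, a lysosomal tethering protein, was at -1.17 ± 0.14. The lipid scramblase gene TMEM41B (0.71 ± 0.12) and PIK3R4 (0.36 ± 0.09), a subunit of the lipid kinase complex, rose, the second of these with a call that was lost without either wild-type library and with library totals. Further receptors gave 6 rises and 5 falls among 13, with a median of 0.19 (-0.03 with library totals). CCPG1, a receptor for the endoplasmic reticulum, stood at 183 and 184 CPM in wild type and at 48.9, 37.0 and 54.3 CPM in the knockout (-1.97 ± 0.14). BNIP3L, a receptor for mitochondria in the stretch of chromosome 8, was at -0.79 ± 0.09, the glycogen receptor STBD1 at 0.98 ± 0.19 and the mitochondrial receptor FUNDC1 at 0.75 ± 0.15.

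The list for control of the TFEB factors, which holds regulators of their location and the transcription factor genes FOXO3 and ZKSCAN3, gave 2 rises and 2 falls among 7, with a median of 0.05 (-0.17 with library totals). Its called share of 57.1% was near the 60.0% of all genes tested. The Rag GTPase genes RRAGD (0.76 ± 0.15) and RRAGC (0.26 ± 0.09) rose, and FNIP1 (-0.33 ± 0.09), a partner of folliculin, and FOXO3 (-0.45 ± 0.11), a transcription factor of autophagy genes, fell. The RRAGC call was lost in 11 of 14 alternatives, and those of FNIP1 and FOXO3 without wild-type replicate 2.

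**Figure D5:**
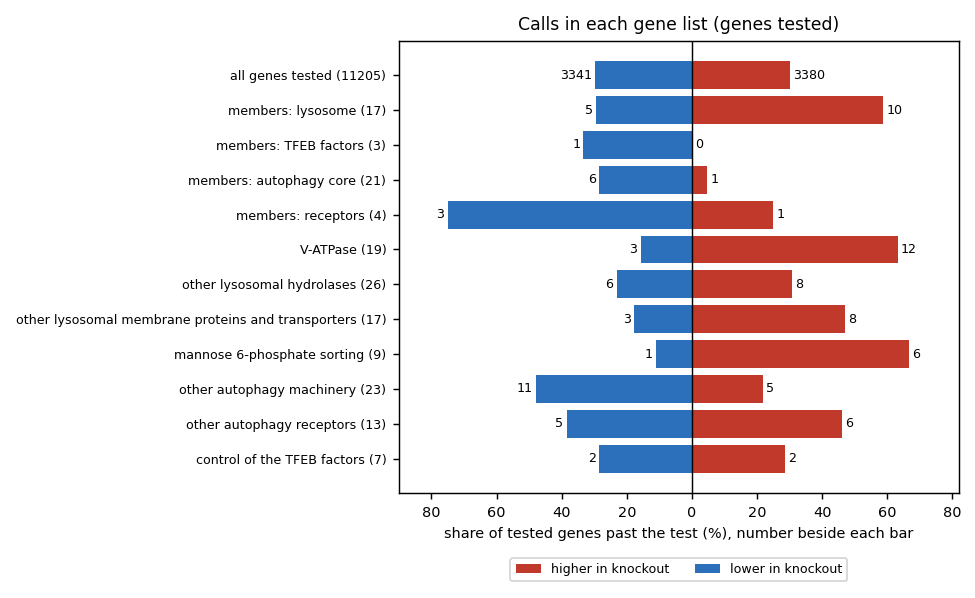
Share of tested genes (%) called higher (right) or lower (left) in the knockout, for all genes tested, the 4 blocks of members and the 7 further lists, with the number called beside each bar and the number tested in parentheses. The lysosomal block, the V-ATPase and mannose 6-phosphate sorting extend furthest to the right, and the further autophagy machinery and the receptors among the members extend to the left.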

How the data were processed

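Footprints were measured in 5 HAP1 libraries. Per the labels' protocols, lysates made with cycloheximide were digested with RNase I and fragments of 28 to 32 nt were cloned. Per the submitters' processing notes, Bowtie and hg38 were used. For the counting tool, its annotation, the use of strand and the treatment of duplicates and multiply mapping reads, the entry is: not given in the sources used here. The deposited table gave raw whole-number counts per transcript and symbol, per the file headers. Its header was shifted by 1 cell, and columns were assigned by name.

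Counts were fitted over all 11205 rows passing filterByExpr (minimum count 10) with edgeR 4.0.16 in R 4.3.3 (TMM, quasi-likelihood test, genotype as sole term, adjustment by Benjamini-Hochberg, threshold 0.05). Standard errors were approximated as the absolute log2 fold change over the root of F. DESeq2 1.42.0 and other scalings, filters, thinned and left-out libraries were alternatives. The filter can pass a gene through its high group alone. Fold changes are relative to other genes, and a shift common to all genes would not be seen. With no count in a library, 3 counts are taken as the limit, between 0.102 and 0.560 CPM. Such limits cover counting error only.

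Coordinates, coding lengths and G + C content came from GENCODE 29, which placed 13533 of 13638 rows. Beyond the members, the genes named were ZCCHC4, up to 2 genes per list and direction with the smallest adjusted p, and genes overlapping members, the last chosen after their values were seen. The members and lists were chosen with earlier results of these data known. The scripts were tested on simulated data. Motif alternatives, added G + C and chromosome 8 settings, and the planned comparison of protein sequences, which was not made, are covered in the closing section.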

Additional observations from a re-analysis of the deposited data

How the results depend on the processing

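Of the 27 calls among members, 8 of 12 rises and 6 of 15 falls were kept in all 14 alternatives. LAMP2 reversed with library totals, to -0.0216 (edgeR adjusted p = 0.793), and no other member with a call changed sign. Over all members, leaving out 1 library gave 9 to 15 rises and 10 to 17 falls, and summing near-identical libraries (the wild-type pair, and knockout replicates 1 and 3) gave 9 falls. Those libraries summed ended the calls of CTSC, GLB1, GUSB, HEXA, PSAP, LAMP2, ATG4B, GABARAP, SQSTM1 and NBR1. For lysosomal genes that summing gave 2 falls, and leaving out 1 library 3 to 6. TFEB factors had 2 falls with library totals and 2 with libraries thinned to the smallest total, and 0 to 2 without 1 library. The autophagy core had 10 falls with library totals, 2 rises with no filter on low counts, and 1 to 4 rises without 1 library. Receptors had 0 rises with upper quartile scaling, library totals, a mean count of at least 50, thinned libraries or summed libraries, 0 to 1 rises without 1 library and 1 to 3 falls. The further lists had 29 rises and 41 falls with library totals, 31 rises and 19 falls with summed libraries, and 28 to 50 rises and 20 to 35 falls without 1 library. Over all genes tested, library totals gave 2391 rises and 4564 falls. Summed libraries gave 4614 calls over all genes in place of 6721, with fewer libraries in the fit. The cause was not tested for this or for any other change of setting.

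Within 2 Mb in place of 5 Mb, the neighbours of WIPI1 had a median of -0.36 and those of GABARAPL2 0.0356. The longer motifs TCACGTGA and GTCACGTGA were in 4 lysosomal promoters where CACGTG was in 5. Settings added after seeing the data centred values on genes of like G + C content or left out chromosome 8 below 50 Mb. The first changed no sign of a called member. The second only dropped CTSB, the member in that stretch, from the counts without a new fit, which left 12 rises and 14 falls. For the 2 replicate numbers shared by the genotypes, the correlations of deviations were -0.051 and -0.049. The deviations of 2 wild-type libraries mirror each other, so these values cannot show whether libraries were paired. With the replicate block the members gave 11 rises and 14 falls, the lost calls being LAMP2 (0.21, edgeR adjusted p = 0.170) and GUSB (-0.30, edgeR adjusted p = 0.113). In the wild-type libraries 1 count is worth 0.172 and 0.187 CPM. The comparison of protein sequences was not run.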
